A study of Mus musculus with 6 samples.

Results

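Bone morphogenetic proteins (BMPs) are secreted ligands of the TGF-beta superfamily. They bring together type I receptors such as Bmpr1a and the type II receptor Bmpr2, which phosphorylate Smad1, Smad5 and Smad9; these join Smad4, enter the nucleus and switch on genes that include Id1, Id2 and Id3. Id proteins are helix-loop-helix proteins without a DNA-binding region that hold E proteins away from DNA, and Smad6 and Bambi are inhibitors that the pathway itself can induce. The genes described here are 3 ligands (Bmp2, Bmp4 and Bmp7), 2 receptors (Bmpr1a and Bmpr2), 2 inhibitors (Smad6 and Bambi) and 3 targets (Id1, Id2 and Id3). Every probe set whose platform annotation named one of these 10 genes alone was taken, which gave 21 of the 34945 probe sets with a single gene symbol.

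The arrays compared 393P, a mouse lung cancer cell line, stably transfected with a vector for constitutive expression of Zeb1 (Zeb1 vector, 3 cultures) with the same line carrying the pcDNA control vector (control vector, 3 cultures). Zeb1 is a zinc-finger repressor of epithelial genes. Cells of both groups were grown in RPMI with fetal bovine serum, and the labels name no added ligand or inhibitor. The sources used here do not say whether each group is 1 clone or a pool, nor how many transfections lie behind it. The sample titles number the replicates without saying whether they are separate cultures. The p-values thus measure at most the spread between cultures of the same stable cells.

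All values are log2 MAS5 signals, and a difference of 1 is a doubling. Signals under a floor of 4.45 were raised to it for means and tests, and a probe set was tested when it reached its array's median (6.15 to 6.44) on at least 3 of the 6 arrays. Zeb1 itself read 9.69 ± 0.0964 on Zeb1 vector arrays and 4.47 ± 0.0337 on control vector arrays (SD, n = 3 each) on its brightest probe set. On that probe set 2 of the control vector arrays lay under the floor. Of its other probe sets, 1443005_at had a log2 change of 1.17, and 1420243_at and 1446127_at did not pass the filter. Of 20594 tested probe sets 46.1% were called at an adjusted p under 0.05 (limma, Benjamini-Hochberg), 24.5% as higher and 21.6% as lower in Zeb1 vector cells, and in 55.4% the arrays of one group all stood apart from those of the other. The summed linear signal of 5 epithelial markers was 57520 to 61742 on Zeb1 vector arrays and 89443 to 95379 on control vector arrays: Epcam, Cdh1 and Krt8 fell (log2 changes -7.05, -4.01 and -0.16), and Krt18 and Krt19 had changes of 0.03 and -0.04. The part of this shift in the results below was not tested. The lung lineage markers Nkx2-1 and Scgb1a1 did not pass the filter and Sftpc stood near the array median (6.30 in Zeb1 vector and 6.31 in control vector cells). The summed linear signal of 6 fibroblast markers was 279 to 367 on Zeb1 vector arrays and 278 to 455 on control vector arrays, with 1 of the 6 at the floor throughout. That of 4 leukocyte markers was 380 to 507 on Zeb1 vector arrays and 458 to 538 on control vector arrays, and that of 4 endothelial markers 275 to 418 on Zeb1 vector arrays and 290 to 399 on control vector arrays, so the ranges of the groups overlapped for the fibroblast, leukocyte and endothelial lists. Pdgfrb and Pecam1 were at the floor on all 6 arrays. Cd68, Csf1r and Kdr reached the array median on all 6 arrays and Col1a2 on 5, none of them called at the brightest probe set. A dimmer Csf1r probe set, 1419873_s_at, was called lower in Zeb1 vector cells (log2 change -1.77, adjusted p = 0.00126). It passed the filter through control vector arrays alone and so had to differ.

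RefSeq promoter windows (GRCm38.p6) were at hand for 6 of the 10 genes, namely Bmp4, Bmpr1a, Bmpr2, Smad6, Id2 and Id3. Shown here are the 250 bases before the start of 1 ligand and 2 targets that rose, 5′ to 3′ on the gene's strand, with matches to 4 motifs in capitals. The motifs, read on both strands, were the E-box CANNTG to which helix-loop-helix proteins bind, its form CACCTG that Zeb1 is known to bind, the GC-rich GGCGCC bound by BMP Smads, and the Smad palindrome GTCTAGAC. CACCTG is itself a CANNTG.
Bmp4, chr14:46390670-46390919, minus strand: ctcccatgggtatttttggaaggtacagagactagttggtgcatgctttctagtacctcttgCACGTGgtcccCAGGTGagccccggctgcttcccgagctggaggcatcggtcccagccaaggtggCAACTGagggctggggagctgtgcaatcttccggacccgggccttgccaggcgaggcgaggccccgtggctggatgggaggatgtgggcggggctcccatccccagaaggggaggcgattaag
Id2, chr12:25096093-25096342, minus strand: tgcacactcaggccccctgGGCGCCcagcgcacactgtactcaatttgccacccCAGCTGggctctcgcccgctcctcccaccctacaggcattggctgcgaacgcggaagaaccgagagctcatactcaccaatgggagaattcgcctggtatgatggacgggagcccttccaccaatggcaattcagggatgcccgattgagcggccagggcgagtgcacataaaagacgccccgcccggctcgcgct
Id3, chr4:136143572-136143821, plus strand: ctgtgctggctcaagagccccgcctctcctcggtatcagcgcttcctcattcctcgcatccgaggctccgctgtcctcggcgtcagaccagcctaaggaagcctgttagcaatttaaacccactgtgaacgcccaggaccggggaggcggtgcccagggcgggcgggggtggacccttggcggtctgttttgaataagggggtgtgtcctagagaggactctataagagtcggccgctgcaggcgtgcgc

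The Bmp4 window held 3 E-boxes, 1 of them a CACCTG, read as its reverse complement and beginning 177 bases before the start. The Id2 window held 1 E-box and 1 GGCGCC, with GGCGCC beginning 231 bases before the start, and the Id3 window held no match to the 4 motifs. Among all 32851 promoter windows of that length, 66.2% held a CANNTG, 17.2% a CACCTG, 9.59% a GGCGCC and 0.167% a GTCTAGAC. The Bmpr1a and Bmpr2 windows each held 1 GGCGCC, and the Smad6 window held no match. These matches are descriptions of letters in a short window and say nothing of binding.

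All 3 ligands were higher in Zeb1 vector cells, beside 25.8% of all tested genes that were called higher at their brightest probe set. Bmp2, a ligand best known from bone and heart formation, read 10.08, 10.17 and 10.15 on the 3 Zeb1 vector arrays, against 1.43, 3.95 and 1.14 on the 3 control vector arrays. Every control value lay below the floor, so the transcript was not told apart from background there, and the arrays of the 2 groups lay far apart. Bmp2 was thus at least 51.5-fold higher in Zeb1 vector cells (log2 change at least 5.69, SE 0.162, adjusted p = 8.08e-09). All 3 control values were set to the floor, so this SE and adjusted p hold no spread between control vector arrays. Without any floor the adjusted p was 4.74e-06. The Bmp2 probe set passed the filter through Zeb1 vector arrays alone and so had to differ. The size of the bound moves with the floor: with a raised floor, set at the 50th percentile of all values (6.32), the log2 change was 3.81. In RNA from whole cultures, more expressing cells and more RNA per cell cannot be told apart, here or for any gene below.

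Bmp7, a ligand prominent in kidney and epithelial development, was read by 3 probe sets, and all 3 rose. On probe set 1418910_at the Zeb1 vector arrays read 9.96, 10.09 and 10.10, against 7.03, 6.82 and 7.31 on control vector arrays, a 7.97-fold rise (log2 change 2.99, SE 0.146, adjusted p = 2.34e-07). Probe set 1435479_at gave 9.69, 9.75 and 9.85 in Zeb1 vector cells and 7.83, 8.06 and 7.94 in control vector cells, a 3.53-fold rise (adjusted p = 1.33e-06). The groups were well separated on each of these. Probe set 1432410_a_at gave 9.05, 9.29 and 8.86 in Zeb1 vector cells, against 5.10, 3.50 and 5.18 in control vector cells with 1 array under the floor, at least 17.9-fold higher (adjusted p = 9.43e-07). Its log2 change was 4.16, or 2.74 under the raised floor. This probe set passed the filter through Zeb1 vector arrays alone and so had to differ. The 3 readings of this transcript thus share a direction and differ in size, so folds of different genes are given side by side below.

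Bmp4, a ligand closely related to Bmp2, was above the array median in control vector cells too, and it rose. It read 8.41, 8.23 and 8.17 on Zeb1 vector arrays, against 7.41, 7.54 and 7.25 on control vector arrays. The lowest Zeb1 vector array stood above the highest control vector array, and the rise was 1.83-fold (log2 change 0.87, SE 0.153, adjusted p = 0.00117).

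**Figure D1:**
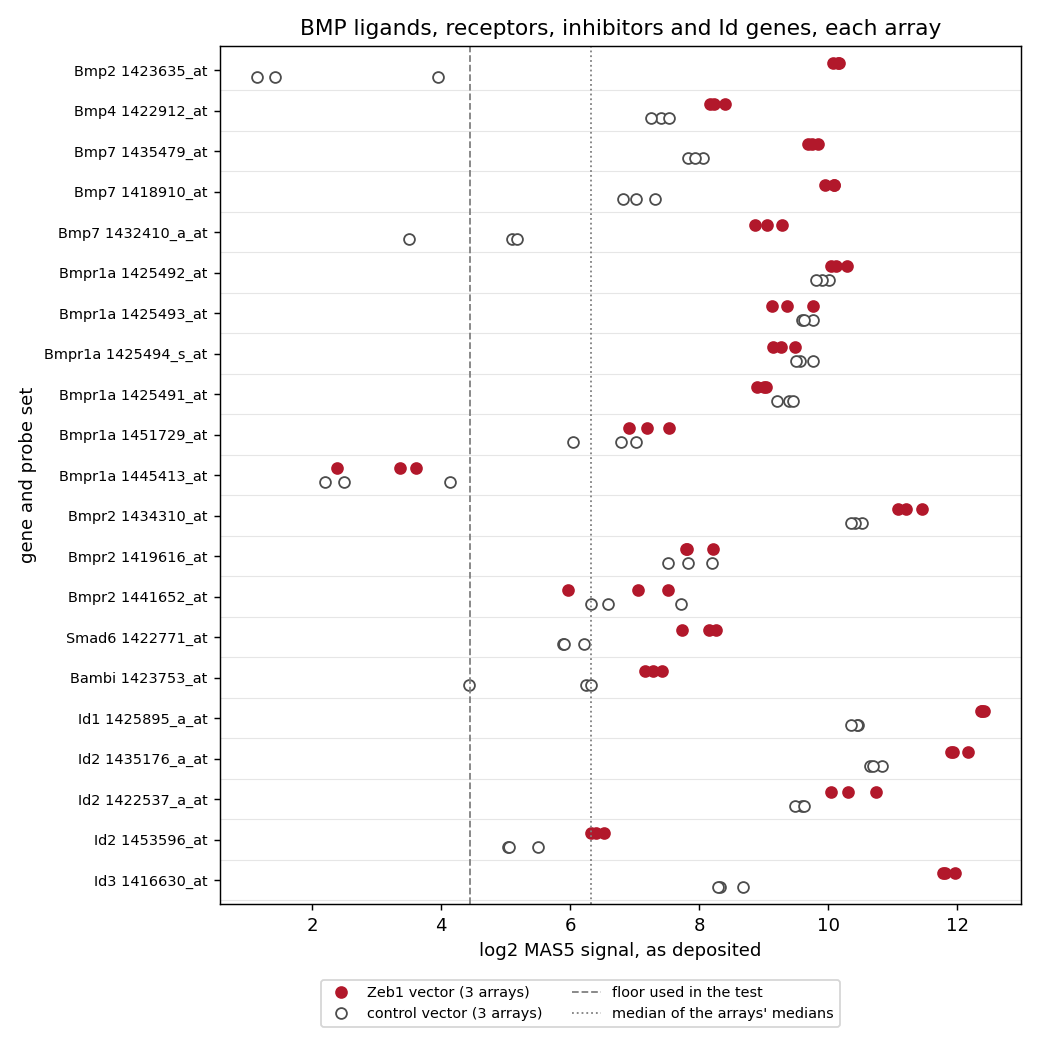
Log2 MAS5 signal of each of the 21 probe sets (rows) on each array, with filled points for the 3 Zeb1 vector arrays and open points for the 3 control vector arrays; the dashed line is the floor of 4.45 and the dotted line the median of the arrays' medians. The Bmp2 control vector points all lie left of the floor while its Zeb1 vector points lie at 10.08 to 10.17, and the Bmpr1a points of the 2 groups lie close together.

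The receptors changed little or their probe sets differed. Bmpr1a, a type I receptor for BMP2 and BMP4, was clearly present in both groups on 4 probe sets with group means of 8.98 to 10.16 in Zeb1 vector cells and 9.35 to 9.92 in control vector cells. Only 1425491_at was called, with 9.00, 8.90 and 9.04 in Zeb1 vector cells and 9.21, 9.39 and 9.46 in control vector cells. Its groups did not overlap, and its log2 change was -0.37 (SE 0.109, adjusted p = 0.0184), a fall of 1.30-fold. It no longer passed when Zeb1 vector replicate 2 (adjusted p = 0.0683) or control vector replicate 3 (adjusted p = 0.067) was left out. The log2 changes of the others were 0.24 on 1425492_at (95% interval 0.02 to 0.47, adjusted p = 0.073), -0.25 on 1425493_at (-0.59 to 0.09, adjusted p = 0.214) and -0.31 on 1425494_s_at (-0.59 to -0.04, adjusted p = 0.0622). On the dimmer 1451729_at it was 0.59 (-0.06 to 1.24, adjusted p = 0.129). The sixth probe set, 1445413_at, lay under the floor on all 6 arrays. With the tested probe sets of the gene averaged, the log2 change of Bmpr1a was -0.02 (adjusted p = 0.882).

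Bmpr2, the type II receptor that pairs with Bmpr1a, rose on its brightest probe set only. On 1434310_at the Zeb1 vector arrays read 11.21, 11.09 and 11.46, against 10.52, 10.42 and 10.35 on control vector arrays, a 1.77-fold rise (log2 change 0.83, SE 0.102, adjusted p = 0.000122) without overlap. On 1419616_at the arrays overlapped (7.80, 8.22 and 7.82 in Zeb1 vector cells, 7.83, 8.20 and 7.52 in control vector cells), with a log2 change of 0.09 (95% interval -0.37 to 0.55, adjusted p = 0.749). The third probe set, 1441652_at, scattered widely within each group and had a log2 change of -0.03 (-1.04 to 0.98, adjusted p = 0.962). Averaging the probe sets gave 0.29 (adjusted p = 0.167), so the call for Bmpr2 rests on 1 probe set.

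Both inhibitors were higher in Zeb1 vector cells, beside 25.8% of all tested genes. Smad6, which blocks the receptor-activated Smads, read 8.15, 7.73 and 8.27 on Zeb1 vector arrays, against 5.89, 5.91 and 6.22 on control vector arrays, where it stayed under the array median. The rise was 4.12-fold (log2 change 2.04, SE 0.218, adjusted p = 4.69e-05). Smad6 passed the filter through Zeb1 vector arrays alone and so had to differ. Bambi, a membrane protein that resembles a type I receptor but has no kinase, read 7.16, 7.42 and 7.29 on Zeb1 vector arrays and 6.24, 6.32 and 4.43 on control vector arrays. Control vector replicate 3 was at the floor and set most of the spread, and the groups did not overlap. Bambi was at least 3.08-fold higher (log2 change 1.62, SE 0.457, adjusted p = 0.0156). Its log2 change was 1.01 without control vector replicate 3 (adjusted p = 0.0063), 0.97 under the raised floor, and the gene no longer passed when Zeb1 vector replicate 2 was left out (adjusted p = 0.0532) and with no filter on dim probe sets (adjusted p = 0.126).

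At their brightest probe sets the 3 Id genes were above the array median in control vector cells and higher still in Zeb1 vector cells. Of all tested genes 25.8% were called higher. Id1 read 12.39, 12.37 and 12.42 on Zeb1 vector arrays, against 10.47, 10.45 and 10.36 on control vector arrays. The arrays of each group lay close together and far from the other group, and the rise was 3.91-fold (log2 change 1.97, SE 0.0647, adjusted p = 1.88e-08). Id3 read 11.81, 11.78 and 11.97 on Zeb1 vector arrays, against 8.33, 8.68 and 8.29 on control vector arrays, a 10.7-fold rise (log2 change 3.42, SE 0.116, adjusted p = 2.3e-08).

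Id2 rose on both of its tested probe sets. The brightest, 1435176_a_at, read 11.94, 11.90 and 12.17 in Zeb1 vector cells and 10.65, 10.83 and 10.70 in control vector cells, a 2.42-fold rise (log2 change 1.28, SE 0.0889, adjusted p = 2.65e-06). On 1422537_a_at the values were 10.31, 10.05 and 10.74 in Zeb1 vector cells, against 9.59, 9.48 and 9.62 in control vector cells, a 1.74-fold rise (adjusted p = 0.00215). The dim 1453596_at did not pass the filter. It read 6.32, 6.53 and 6.41 in Zeb1 vector cells and 5.04, 5.06 and 5.50 in control vector cells, and in the fit with no filter its log2 change was 1.22 (adjusted p = 0.00714).

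**Figure D2:**
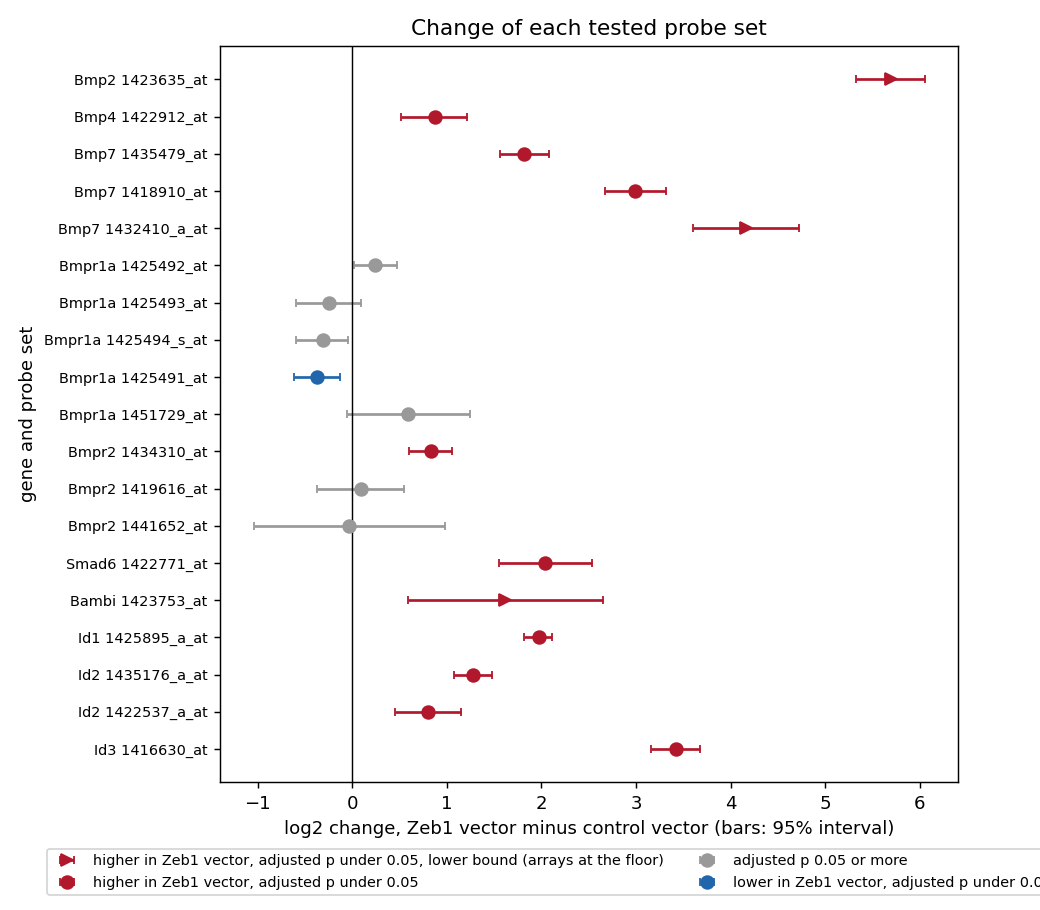
Log2 change (Zeb1 vector minus control vector) with its 95% interval for each of the 19 tested probe sets, 3 arrays a group; triangles mark changes that are lower bounds because arrays lay at the floor. The ligands, inhibitors and Id genes lie right of 0, from 0.80 for 1 Id2 probe set to 5.69 for Bmp2, and the Bmpr1a probe sets lie between -0.37 and 0.59.

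Of the 19 tested probe sets, 12 were called higher in Zeb1 vector cells, 1 lower and 6 were not called, beside a background of 24.5% called higher and 21.6% lower. The 2 groups stood apart on 15 of the 19, beside 55.4% of all tested probe sets. The probe sets of Bmp2 and Smad6 and 1 of those of Bmp7 passed the filter through the Zeb1 vector arrays alone and so had to differ; they are in these counts. The median log2 change was 0.87 over the 19 and 0.02 over all tested probe sets.

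Set side by side, ligand changes were at least 5.69 for Bmp2, 0.87 for Bmp4 and 1.82 to at least 4.16 for Bmp7, all as log2 changes, and those of the readout genes were 1.97 for Id1, 0.80 and 1.28 for Id2, 3.42 for Id3 and 2.04 for Smad6. The arrays hold 1 time and 1 comparison of stable cells, so whether readouts followed the ligands was not tested.

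In the rest of the pathway, 67 genes of a list of 73 were on the array with a probe set of their own and 43 were tested, each through its brightest tested probe set. Of these 19 rose, 5 fell and 19 were not called, beside 49.3% of all 11893 tested genes that were called, 25.8% that rose and 23.5% that fell, and the median log2 change was 0.23. These counts hold 5 genes that passed the filter through the arrays of 1 group alone and so had to differ, Atoh8, Tgfbr3, Grem1 and Bmper through Zeb1 vector arrays and Bmp8b through control vector arrays. Tested probe sets of the same gene differed in call for 12 of the 27 genes that had several, and in 1 of them, Skil, they were called in opposite directions.

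Among the other ligands 4 were tested. Bmp8b was lower in Zeb1 vector cells on both of its probe sets. Both passed the filter through control vector arrays alone and so had to differ. The brighter read 2.46, 5.51 and 5.39 on Zeb1 vector arrays, against 8.41, 8.29 and 8.75 on control vector arrays, at least 10.3-fold lower (log2 change -3.37, adjusted p = 1.59e-05), or -2.16 under the raised floor. Bmp1, which despite its name is a procollagen protease that also cleaves the antagonist chordin, read 8.17, 8.44 and 8.23 in Zeb1 vector cells and 9.83, 10.03 and 9.95 in control vector cells, a 3.15-fold fall (adjusted p = 2.69e-06). Bmp10, a heart ligand, had a log2 change of 0.67 (adjusted p = 0.0245), a call lost when any array but control vector replicate 3 or Zeb1 vector replicate 2 was left out (adjusted p = 0.0595 to 0.0853). The ligands Bmp5, Bmp6 and Bmp8a did not pass the filter.

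Of 8 tested receptors and co-receptors 3 rose and none fell at the brightest probe set, beside 25.8% and 23.5% of all tested genes. The type I receptor Acvr1, which also carries BMP signals, read 11.85, 11.78 and 12.17 on Zeb1 vector arrays and 11.46, 11.28 and 11.23 on control vector arrays, a 1.53-fold rise (adjusted p = 0.00125). Its probe set 1416786_at rose by 0.54 on the log2 scale (adjusted p = 0.0024). On the dimmer 1416787_at the groups overlapped, with a log2 change of 0.11 (adjusted p = 0.707). The co-receptor endoglin, Eng, rose 1.75-fold (adjusted p = 0.00237). The co-receptor betaglycan, Tgfbr3, was at least 9.84-fold higher (7.97, 7.96 and 8.13 in Zeb1 vector cells, against 5.20, 3.42 and 4.52 in control vector cells, adjusted p = 9.76e-06). Its log2 change was 3.30, or 1.70 under the raised floor. Tgfbr3 passed the filter through Zeb1 vector arrays alone and so had to differ. The log2 changes of the remaining 5 were -0.32 for Acvr2a, 0.25 for Acvr2b, 0.29 for Rgma, 0.03 for Rgmb and 0.15 for Neo1, none of them called. Dimmer probe sets of 3 of these were called, with log2 changes of -0.81 for Acvr2a (adjusted p = 0.00113), 0.84 for Acvr2b (adjusted p = 0.0306) and 1.31 and 2.45 for Neo1 (adjusted p = 4.43e-06 and 0.00441). Bmpr1b, Acvrl1 and Hjv did not pass the filter.

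Among the antagonists that bind ligands outside the cell, 3 of 8 rose and 1 fell, beside 25.8% and 23.5% of all tested genes. Follistatin, Fst, which binds activins and some BMPs, read 10.99, 10.86 and 10.67 on Zeb1 vector arrays, against 8.29, 7.62 and 8.23 on control vector arrays, a 6.93-fold rise (adjusted p = 1.34e-06). Gremlin, Grem1, which binds BMP2, BMP4 and BMP7, read 7.62, 7.48 and 7.44 in Zeb1 vector cells and 4.99, 5.63 and 5.56 in control vector cells, 4.35-fold higher (adjusted p = 0.000115). Bmper, a chordin-related regulator, was 4.18-fold higher (adjusted p = 0.000471), from a low signal. Under the raised floor Grem1 and Bmper had log2 changes of 1.19 and 0.65 in place of 2.12 and 2.06. Both passed the filter through Zeb1 vector arrays alone and so had to differ. Nbl1, a relative of gremlin, was at least 7.30-fold lower (4.32, 5.77 and 6.42 in Zeb1 vector cells, against 8.13, 8.62 and 8.49 in control vector cells, adjusted p = 0.000424), with a log2 change of -2.87, or -2.06 under the raised floor. Noggin, Nog, lay under the floor on all 6 arrays.

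The Smads that carry the signal changed by small amounts. All 3 that were tested rose, beside 25.8% of all tested genes. Smad1 read 11.28, 11.31 and 11.31 on Zeb1 vector arrays, against 10.86, 10.65 and 10.79 on control vector arrays, a 1.45-fold rise (adjusted p = 0.000309). Its probe set 1459843_s_at rose by 0.65 on the log2 scale (adjusted p = 0.000132). The dimmer 1416081_at was not called, with a log2 change of 0.36 (adjusted p = 0.0842). The shared partner Smad4 rose 1.40-fold (adjusted p = 0.000147), and all 3 of its probe sets rose. Smad5 had a log2 change of 0.30 (adjusted p = 0.048). The Smad5 call did not last under most alternatives, among them the omission of each array except Zeb1 vector replicate 3 (adjusted p = 0.0746 to 0.175), and 1 of its 3 probe sets had a change of -0.29 (adjusted p = 0.166). Smad9 did not pass the filter.

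Of 11 inhibitors inside the cell 4 rose and 2 fell, beside 25.8% and 23.5% of all tested genes. The antiproliferative protein Tob1, which can dampen BMP Smads, rose 2.32-fold (11.72, 11.59 and 11.90 in Zeb1 vector cells, 10.61, 10.51 and 10.45 in control vector cells, adjusted p = 4.79e-06). Smad7, the other inhibitory Smad, had a log2 change of 0.80 on a probe set whose groups overlapped (adjusted p = 0.0493), a call lost without any 1 array except control vector replicate 2 (adjusted p = 0.0688 to 0.173). Its other probe set rose by 0.33 (adjusted p = 0.00826). The ubiquitin ligases Smurf1 and Smurf2, which mark Smads and receptors for breakdown, fell by 0.81 (adjusted p = 0.000205) and by 0.40 (adjusted p = 0.0124) on the log2 scale. The call for Smurf2 was lost with no filter (adjusted p = 0.0609). Its dimmest probe set was not called (log2 change -0.27, adjusted p = 0.0744).

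Of 6 other target genes 3 rose and none fell, beside 25.8% of all tested genes that rose and 23.5% that fell. Atoh8, a helix-loop-helix factor that BMP signals induce, read 7.88, 8.02 and 8.25 on Zeb1 vector arrays and lay under the floor on all control vector arrays (2.70, 2.74 and 3.12). It was at least 12.2-fold higher (adjusted p = 2.45e-06), with a log2 change of 3.60, or 1.73 under the raised floor. Atoh8 passed the filter through Zeb1 vector arrays alone and so had to differ. With every control value set to the floor, its adjusted p holds no spread between control vector arrays. Without any floor that adjusted p was 6.94e-06. Id4, the fourth Id gene, read 7.73, 7.74 and 7.07 in Zeb1 vector cells and 5.77, 5.31 and 6.66 in control vector cells (log2 change 1.60, adjusted p = 0.00458, and 0.0592 with no filter). Hey1, a transcriptional repressor also known as a Notch target, had a log2 change of 0.78 (adjusted p = 0.0386), a call lost without any 1 array except control vector replicate 3 (adjusted p = 0.0743 to 0.112). Msx1, a homeobox factor, had a log2 change of -0.35 on its representative probe set (adjusted p = 0.314), whereas its other probe set was at least 2.75 higher (adjusted p = 0.000713). That other probe set passed the filter through Zeb1 vector arrays alone and so had to differ. Dlx5, with 1 Zeb1 vector array under the floor, and Gata2 were not called. Their log2 changes were -0.53 (adjusted p = 0.454) and 0.23 (adjusted p = 0.32). The targets Msx2, Dlx3, Gata3, Tbx2, Tbx3 and Tbx20 did not pass the filter.

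Of the 3 E proteins that Id proteins bind 2 rose and none fell, beside 25.8% and 23.5% of all tested genes. Tcf4 rose 5.70-fold (10.08, 10.02 and 10.32 on Zeb1 vector arrays, against 7.66, 7.65 and 7.57 on control vector arrays, adjusted p = 1.97e-07). All 6 of its tested probe sets rose. The dimmest Tcf4 probe set, 1416725_at, passed the filter through Zeb1 vector arrays alone and so had to differ. Tcf12 rose 1.28-fold (adjusted p = 0.00506), a call lost with the mean of its probe sets (adjusted p = 0.149). Tcf3 had a log2 change of -0.22 (95% interval -0.57 to 0.12, adjusted p = 0.274).

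**Figure D3:**
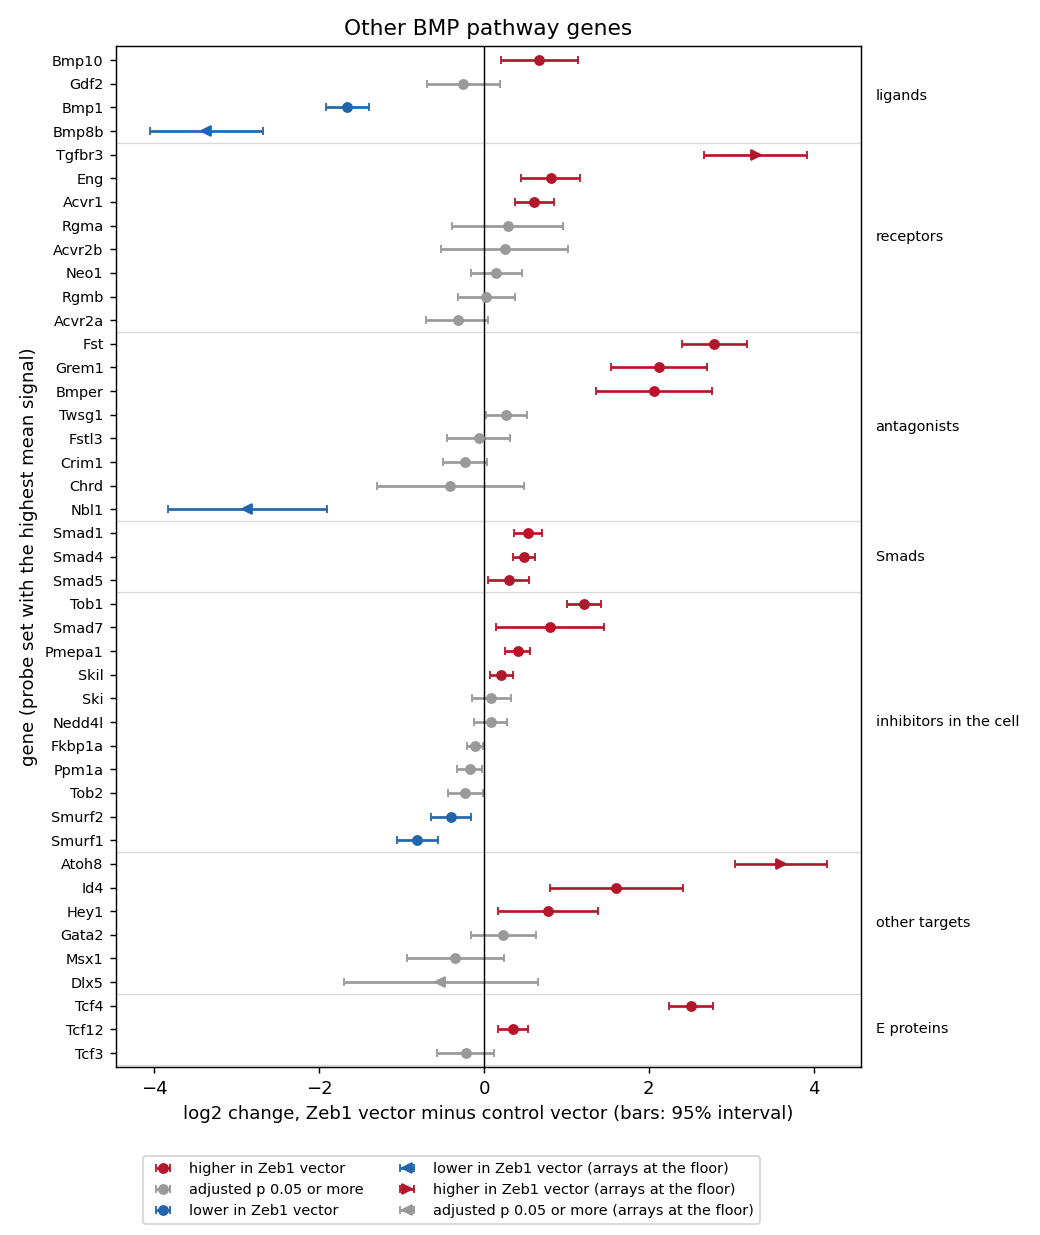
Log2 change (Zeb1 vector minus control vector) with its 95% interval for the 43 other BMP pathway genes that were tested, grouped by role, each through its brightest tested probe set; triangles mark genes with arrays at the floor. Atoh8, Tgfbr3, Fst and Tcf4 lie farthest right and Bmp8b, Nbl1 and Bmp1 farthest left, while the 3 Smads lie between 0.30 and 0.53.

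The tested probe sets of other genes closest to Bmp2 over the 6 arrays, by Euclidean distance after centring each on its mean, were those of Ccnd2 (distance 0.171), Wipf1 (0.177) and Khdrbs3 (0.227). Closest to Id3 were Mlph (0.195), Tceal8 (0.202) and Igfbp7 (0.222). Bmp2 and its 3 neighbours had arrays raised to the floor, so their distances and order depend on it. With 2 groups of 3 arrays this likeness is mainly a like change between the groups.

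**Figure D4:**
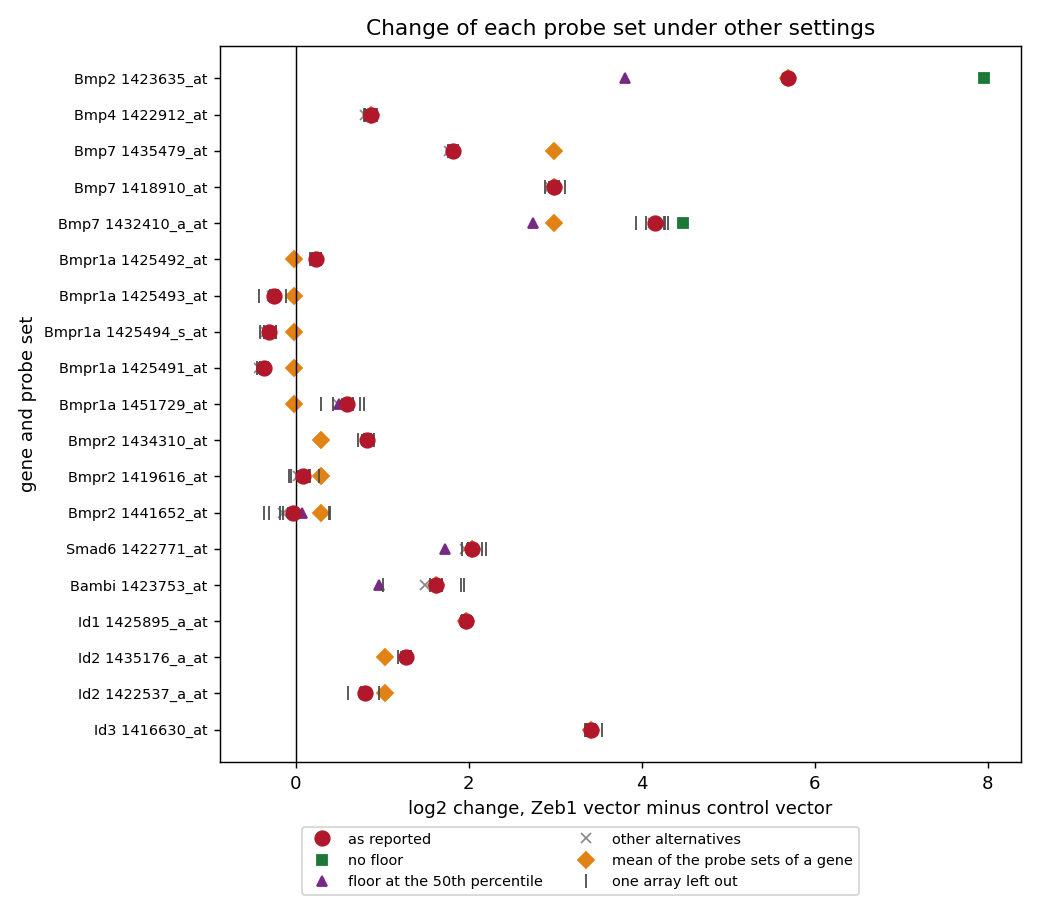
Log2 change (Zeb1 vector minus control vector) of each tested probe set as reported and under each alternative setting, including each array left out. Bmp2 moves between 3.81 and 7.96 with the floor and stays right of 0, Id1 stays between 1.93 and 1.99 and Id3 between 3.35 and 3.54.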

How the data were processed

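The deposited table holds log2 values for 45101 probe sets on 6 one-colour Affymetrix arrays; the submitters' processing notes name MAS5, with no version given in the sources used here. Taken out of log2, the deposited values have a mean of 500 on every array after 2% is trimmed at each end, so the arrays share 1 scale. Detection calls were not used here. The 2 missing values were set to the floor, the 25th percentile of all values (log2 4.45), at or under which 23.9% to 26.4% of values lay. Control probe sets (64) and those with several symbols (932) or none (9160) were left out. Gene symbols were those of the platform annotation, checked through the Entrez identifier in RefSeq (GRCm38.p6); 0 changed.

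The 2 groups were compared by limma 3.58.1 under R 4.3.3 (lmFit, eBayes with an intensity trend) on all 20594 tested probe sets, with Benjamini-Hochberg adjustment over them; every adjusted p printed is from this test or from its stated alternative. The method was tested on simulated data. Errors are SD over arrays or limma's moderated SE, and the number of arrays (3 a group) limits the precision. A change with an array at the floor is a lower bound, written as at least N-fold. Other pathway genes were represented by their brightest tested probe set. Named with values were all member probe sets, the 6 largest rises and all falls among the pathway genes, every tested receptor and Smad, and further genes of each role (such as Tob1, Smad7, Id4, Hey1 and Bmp10), which were chosen after their values were seen. Members and lists were chosen with earlier results of these data known.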

Additional observations from a re-analysis of the deposited data

How the results depend on the processing

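Of 260 values of member probe sets under alternatives, 251 kept their side of the threshold, 6 lost a call and 3 gained one. Of the 251, 8 values of Bmpr1a and Bmpr2 probe sets that were not called took the other sign, and the sign of no called value turned. Those that lost a call were Bmpr1a 1425491_at (3 settings), Bambi (2) and Bmpr2 1434310_at (1). The 3 gained calls were falls of Bmpr1a. They were 1425494_s_at under quantile normalization (adjusted p = 0.0391) and without Zeb1 vector replicate 1 (adjusted p = 0.0314), and 1425493_at without Zeb1 vector replicate 2 (adjusted p = 0.0273). For other pathway genes 542 of 589 values kept their side of the threshold, 6 of them uncalled with the other sign (Acvr2b, Dlx5, Fstl3 and Rgmb); 35 lost a call and 10 gained one. The remaining 2, called in 1 of the settings compared, turned sign with the mean of the probe sets of a gene: Skil at -0.16 (adjusted p = 0.104) and Msx1 at 1.20 (adjusted p = 0.00469). That setting counts genes in place of probe sets and gave 5859 called of 11893 in all and 8 of the 10 genes described here, all higher. Leaving out 1 array gave 8286 to 9217 called probe sets in all, 12 to 14 of the 19 described and 20 to 23 other pathway genes. Same-numbered arrays of the 2 groups deviated from their group means with correlations of 0.0173, 0.0138 and -0.039. Not every array matched its own number best, so the numbers were not taken as pairs. With the replicate number as a block (replicate block) 9377 probe sets were called in all, 13 of the 19 and 24 other pathway genes; Smad5 lost its call (adjusted p = 0.0624) and Tob2 gained one (adjusted p = 0.0494). Under quantile normalization 14 of the 19 were called, and 4856 probe sets rose and 4829 fell in all, against 5044 and 4449 with the authors' scaling. The floor limits every gene with control or Zeb1 vector signal near background, as for Bmp2, whose log2 change fell to 3.81 under the raised floor and reached 7.96 without any.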
